A study of Homo sapiens with 2 samples.

Results

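The miR-181 family was followed across both arrays of a study of dioxin exposure in HepG2, a human hepatocellular carcinoma cell line. The members were taken by name from the array's probes and comprised 4 guide arms (hsa-miR-181a, hsa-miR-181b, hsa-miR-181c and hsa-miR-181d) and 3 opposite arms, called star arms (hsa-miR-181a*, hsa-miR-181a-2* and hsa-miR-181c*), together 7 of 718 probe names. Per the labels, 1 array held total RNA of control cells, and 1 array held total RNA of cells exposed for 48 h to 10 nM TCDD (tetrachlorodibenzo-p-dioxin, which activates the aryl hydrocarbon receptor). Both groups were the same cell line in the same medium, and the labels name no vehicle, culture or passage. Values are log2 fluorescence from a single channel (Cy3), since the other channel held unrelated RNA. With 1 array per group there was no replicate spread, so no difference below was tested, and precision is limited by the small number of arrays.

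miRNAs are cut from hairpin precursors, and each hairpin can give a mature RNA from either arm. The guide arm is usually the one kept in the silencing complex, where its seed (bases 2 to 8) pairs with target mRNAs, while the star arm is usually degraded. The miR-181 family is known for setting the sensitivity of T cell receptor signalling in the thymus, and in liver cancer its guide arms have been described as raised in stem-like tumour cells and as responsive to TGF-beta.

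The mature sequences are shown because the 4 guide arms differ by so few bases that the probes must be read with that in mind. They come from RefSeq (GRCh38.p14), where all 7 names matched through their current names, and the seed is in capitals.
miR-181a: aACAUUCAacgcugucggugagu
miR-181b: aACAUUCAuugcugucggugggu
miR-181c: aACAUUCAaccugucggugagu
miR-181d: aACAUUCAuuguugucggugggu
miR-181a*: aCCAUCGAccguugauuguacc
miR-181a-2*: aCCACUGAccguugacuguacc
miR-181c*: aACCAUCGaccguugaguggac

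All 4 guide arms carried the same seed, and the star arms carried 3 different ones. Counting from 1 at the 5′ end, miR-181a and miR-181b differed by A9U, C10U and A21G, and miR-181b and miR-181d by C12U alone. miR-181c was miR-181a without the G at position 11. The star arms miR-181a* and miR-181a-2* differed by U5C, C6U and U16C, of which U5C and C6U lie in the seed. The GC content was 43.5% to 47.8% in the guide arms and 50% to 54.5% in the star arms.

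The family is encoded at 3 loci, each with a pair of hairpins. MIR181A1 (chr1:198859044-198859153, minus strand) and MIR181B1 (chr1:198858873-198858982, minus strand) lie within the span of the long non-coding RNA gene MIR181A1HG. MIR181A2 (chr9:124692442-124692551, plus strand) and MIR181B2 lie within the spans of the long non-coding RNA gene MIR181A2HG and of NR6A1. MIR181C (chr19:13874699-13874808, plus strand) and MIR181D (chr19:13874875-13875011, plus strand) lie within the span of the protein-coding gene NANOS3. Coordinates are those of GRCh38.p14, and exons and introns were not analysed here. The starts of the paired guide arms were 183 bases apart on chromosome 1, 1245 on chromosome 9 and 185 on chromosome 19.

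The hairpins below show which products can be assigned to a locus, with both mature arms in capitals.
MIR181A1: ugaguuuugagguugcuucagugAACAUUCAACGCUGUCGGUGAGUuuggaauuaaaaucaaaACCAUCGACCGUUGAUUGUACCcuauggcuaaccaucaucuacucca
MIR181A2: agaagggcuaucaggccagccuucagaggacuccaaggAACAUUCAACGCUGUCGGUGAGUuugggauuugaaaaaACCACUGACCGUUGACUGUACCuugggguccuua
MIR181C: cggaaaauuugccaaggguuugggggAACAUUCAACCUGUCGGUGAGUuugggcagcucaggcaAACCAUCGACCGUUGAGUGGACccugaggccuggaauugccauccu

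The guide arm in MIR181A1 and MIR181A2 is the same RNA, so the miR-181a probe reads both loci together, and so does the miR-181b probe. The star arms differ, so miR-181a* reports on the chromosome 1 hairpin and miR-181a-2* on the chromosome 9 hairpin. The RNAs miR-181c, miR-181d and miR-181c* come from chromosome 19. These assignments hold for the RNAs, and how far each probe also binds its close relatives was not tested. The star arms of the miR-181b and miR-181d hairpins were not analysed here.

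Each array shared a smallest value of 5.64, a fluorescence of 50, and 100 (6.64 on the log2 scale) was used as the floor. Names above the floor on either array were called detected, which 242 of the 718 names were. Values under the floor were raised to it before differences were taken (array labelled TCDD minus control), so those differences are bounds. The median difference of the 242 names was -0.003, and the robust SD over the 222 names above the floor on both arrays was 0.28. That SD describes the spread between probes on this pair of arrays and is no replicate error. HepG2 was checked by its markers. The hepatocyte miRNA miR-122a was dim (7.60 in control and 7.59 under the TCDD label), miR-148a was under the floor on both arrays, and miR-192 (13.88 and 13.96) and miR-194 (12.34 and 13.06) were bright. Of the 7 listed lymphoid and myeloid miRNAs, the 5 defining ones (miR-142-3p, miR-142-5p, miR-150, miR-155 and miR-223) lay under the floor on both arrays, between 5.64 and 5.88. Both others were detected, miR-146b-5p at 11.01 and 11.09 and miR-146a at 10.10 and 9.47.

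The directions below rest on the deposited labels. The published study is known for describing miR-191 as raised by dioxin, whereas the miR-191 probe read 15.77 in control cells and 14.60 under the TCDD label, which differ by -1.17. The direction here is therefore opposite to that description. The miR-191 control value lay near the highest value of its array (15.93), and compression at the top of the range was not tested. The study's text was not among the sources used, so the assay, dose and time behind the description were not compared. A fall under TCDD and exchanged labels cannot be told apart from these arrays. If the labels were exchanged, every difference below would keep its size and turn its sign.

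Under the TCDD label the bright guide arms of the family, miR-181a and miR-181b, were lower by nearly the same factor, and the star arm of the chromosome 1 hairpin was also over 2-fold lower. The star arms of the chromosome 9 and chromosome 19 hairpins differed little. Of the 7 members 3 were at least 2-fold lower and, with the floor applied, none was 2-fold higher. With the floor, 2.48% of the 242 detected names were at least 2-fold lower and 0.413% at least 2-fold higher. The 1 name higher was miR-638, at 12.97 in control and 14.07 under the TCDD label, a difference of 1.10. Without the floor 8 of the 242 names were at least 2-fold higher, and miR-181c was the 1 member among them. The 3 lower members were among the 6 names at least 2-fold lower in all, the others being miR-191, miR-184 and the unnamed candidate 6_5. The median difference of the 7 members was -0.47. In order of brightness in control the probes were miR-181a, miR-181b, miR-181a-2*, miR-181a*, miR-181d, miR-181c* and miR-181c, with miR-181d and miR-181c* 0.03 apart, but brightness depends on the probe and does not rank the RNAs by amount. All 7 counted as detected, but miR-181a* through the control array alone and miR-181c through the array labelled TCDD alone, which leaves 5 above the floor on both.

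**Figure D1:**
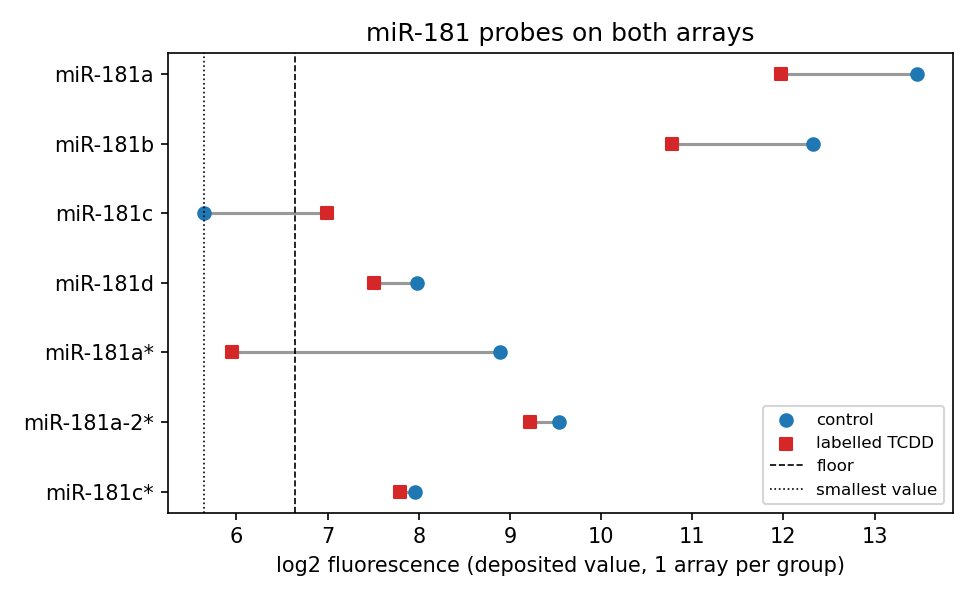
Deposited log2 fluorescence (horizontal axis) of the 7 miR-181 probes on the control array (circles) and the array labelled TCDD (squares), 1 array per group, with the floor at 6.64 (dashed) and the smallest value at 5.64 (dotted). miR-181a, miR-181b and miR-181a* show the wide gaps with the control to the right, and miR-181c alone has the control to the left.

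hsa-miR-181a, the brightest probe of the family, read 13.46 log2 fluorescence in control cells and 11.97 under the TCDD label. In linear units these are 11302 and 4009, a 2.82-fold lower signal with a log2 difference of -1.50. In bulk RNA of a culture, fewer cells carrying the RNA and less of it per cell cannot be told apart. The control value lay well under the highest value of its array (15.93), so it was not at the top of the range. Its difference was the third lowest of the 242 detected names. By brightness the probe moved from rank 22 of 718 on the control array to rank 47 on the other.

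hsa-miR-181b, which has the same seed and is made at the same pair of loci, read 12.32 in control cells and 10.78 under the TCDD label. These are 5126 and 1755 in linear units, a 2.92-fold lower signal with a log2 difference of -1.55, the second lowest of the detected names. The differences of miR-181a and miR-181b lay 0.05 apart on the log2 scale, well inside the robust SD of 0.28 between probes. The 2 RNAs differ at 3 positions, and how far each probe also binds the other RNA was not tested. Among the 29 detected names outside the family whose mean level lay within 1 log2 unit of miR-181b, the differences ran from -0.92 to 0.60, all closer to 0 than that of miR-181b. For miR-181a the 30 such names ran from -0.92 to 1.10.

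hsa-miR-181d, the chromosome 19 guide arm that differs from miR-181b by C12U, was dim and read 7.99 in control cells and 7.51 under the TCDD label. The difference of -0.47 is a 1.39-fold lower signal, and it was 1.07 log2 units smaller in size than that of miR-181b, or 2.11-fold. In linear units the probe went from 254 to 183, so both values lay above the floor of 100 but within 3-fold of it. The miR-181b probe read 5126 in control cells, and how far the miR-181d probe also binds miR-181b was not tested.

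hsa-miR-181c, its neighbour on chromosome 19, was the exception in direction among the 7 members. It shared the smallest value of the control array (5.64) and read 6.998 under the TCDD label, a fluorescence of 128. With the floor applied it was at least 1.28-fold higher there (a difference of at least 0.35). As deposited, without a floor, it was 2.56-fold higher (1.35), so whether it passed 2-fold depends on the floor. Over the whole array 343 names shared the smallest value in control and 257 under the TCDD label. Without a floor 8 detected names were at least 2-fold higher, and how many of them started at the smallest value was not counted. A rise from under the floor was not particular to miR-181c, since miR-30c-1* went from 5.90 in control to 7.07 under the TCDD label. On the control array the miR-181a probe gave its 11302 units while the miR-181c probe, for an RNA 1 base shorter, gave the smallest value. The higher miR-181c signal appeared on the array where the miR-181a signal was the lower one. How far the miR-181c probe also binds miR-181a was not tested.

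**Figure D2:**
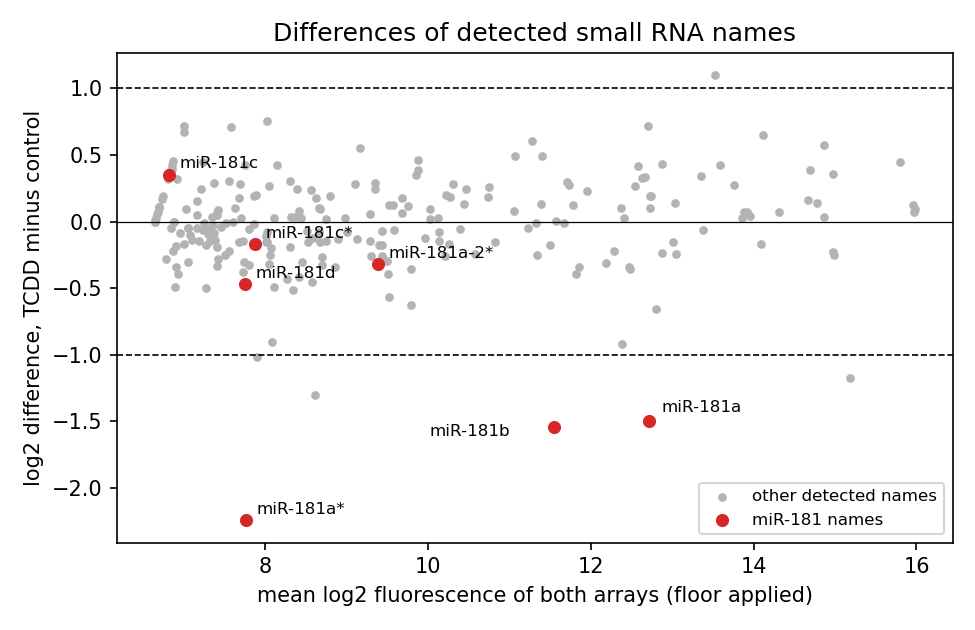
Log2 difference (array labelled TCDD minus control, vertical axis) against mean log2 fluorescence with the floor applied (horizontal axis) for the 242 detected names, miR-181 names in red, dashed lines at 2-fold. miR-181a* (a bound), miR-181b and miR-181a are the lowest points at this floor, and the other miR-181 names lie inside the 2-fold lines.

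The star arms gave the clearest contrast between loci. hsa-miR-181a*, from the chromosome 1 hairpin, read 8.89 in control cells and 5.95 under the TCDD label, or 474 and 61.9 in linear units. The second value lay under the floor, so the signal was at least 4.74-fold lower (a log2 difference of -2.24 or lower). At this floor it was the lowest difference of all detected names. The difference was -2.94 as deposited without a floor, -1.83 with the floor added to each value and -1.46 with the floor at the 75th percentile of each array, where it lay above those of miR-181a and miR-181b.

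hsa-miR-181a-2*, the matching arm of the chromosome 9 hairpin, read 9.54 in control cells and 9.23 under the TCDD label. That is 746 and 599 in linear units, a 1.25-fold lower signal with a difference of -0.32. Both arrays measured it well above the floor. The difference of miR-181a* was lower than that of miR-181a-2* by at least 1.93 log2 units, or at least 3.80-fold, although the 2 star arms differ at only 3 of 22 positions.

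hsa-miR-181c*, from chromosome 19, read 7.96 in control cells and 7.79 under the TCDD label, a 1.12-fold lower signal with a difference of -0.17. The differences of miR-181a-2* and miR-181c* lay 0.15 apart and each was about the size of the robust SD or smaller.

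Read by locus, the chromosome 1 pair had 1 product of its own, miR-181a*, and it was at least 2-fold lower. The chromosome 9 pair had 1 product of its own, miR-181a-2*, and it was within 1.5-fold. The chromosome 19 pair had 3, with miR-181d and miR-181c* lower and within 2-fold, and miR-181c higher by at least 1.28-fold (2.56-fold without a floor). For miR-181a, shared by chromosomes 1 and 9, the difference was 1.18 log2 units lower than that of miR-181a-2*. The share of miR-181a made at each locus was not measured.

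The star arms of the array as a whole lay near 0. Of 155 star names on the array 51 were detected, with a median difference of -0.06, and 32 lay below 0. miR-181a* was the only one at least 2-fold lower (1.96% of the 51), and miR-21*, at -0.92, was the next lowest. The comparison of arms covered 39 pairs of a star and a guide name with both arms detected. In 30 of them the differences of star and guide lay within 1.5-fold of each other, and the median gap (star minus guide) was 0.06.

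With the floor at 100 the miR-181a hairpins stood at both ends of these 39 pairs. The gap between miR-181a* and miR-181a was -0.75 or lower, the lowest of the pairs, followed by miR-138-1* (-0.70), miR-200a* (-0.69) and miR-21* (-0.67), so those neighbours lay close to it. With the floor applied no pair reached -1 (0% of the 39), though the gaps of miR-181a* and miR-181c* are bounds and were -1.44 and -1.52 without a floor. The miR-181a* gap was 0.037 with the floor at the 75th percentile, so it has no settled direction. With the floor applied the gap between miR-181a-2* and miR-181a was 1.18, the highest, followed by miR-191* (1.08) and miR-92a-1* (1.07). At this floor these were the 3 pairs, 7.69%, past 2-fold on that side. miR-149* was next at 0.68. miR-30c-1* followed at 0.66 or higher, a bound, since it read 5.90 in control and 7.07 under the TCDD label. The order and the count on that side therefore depend on the floor. The gap for miR-181c* and miR-181c was -0.52 or lower, a bound set by the floor on the control array. The 2 miR-181a gaps share their guide value and are not independent of each other.

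**Figure D3:**
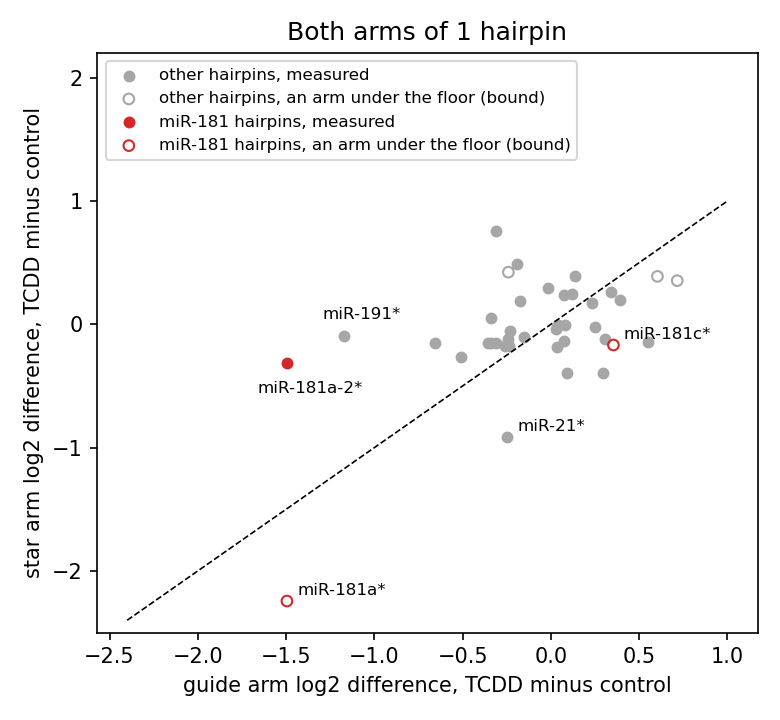
Log2 difference (array labelled TCDD minus control) of the star arm (vertical axis) against that of the guide arm (horizontal axis) for 39 hairpin arm pairs, with equality dashed, miR-181 pairs in red, and open circles where an arm lay under the floor. miR-181a* and miR-181a-2* share 1 guide value at -1.50 and, with the floor at 100, lie on opposite sides of the line.

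The human miRNAs outside the family with the differences nearest the mean of miR-181a and miR-181b (-1.52) all differed less than either. Over the 2 arrays they were miR-191 at a distance of 0.35, miR-184 at 0.50, miR-21* at 0.60, miR-148b at 0.61 and miR-193b at 0.86. miR-184 was dim, at 8.41 in control cells and 7.39 under the TCDD label, while miR-193b was bright, at 13.13 and 12.47. The distances are descriptions of 1 pair of arrays.

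Other miRNAs linked to TGF-beta signalling lay on both sides of 0. Of 16 listed names 13 were detected, none was 2-fold apart in either direction, 8 lay above 0 and 5 below, and the list median was 0.03 beside -0.003 over all detected names. The highest were miR-29a at 0.33 and the epithelial miR-200a at 0.30, and the lowest were miR-29b at -0.51 and miR-27a at -0.26. Of the 3 listed miRNAs linked to the aryl hydrocarbon receptor or dioxin, miR-191 was 2.25-fold lower. It is the miRNA that the published study is known for, so its listing is not independent of these data. miR-132 was near the floor at 6.97 in control cells and 6.76 under the TCDD label, and miR-212 was under the floor on both arrays.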

How the data were processed

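The deposited table holds log2 fluorescence values for 719 probes on 2 arrays. A dye-carrying RNA linker was ligated to total RNA, per the labels' protocols. For the scanner, the background correction and the scaling, no source used here gives a method. The deposited log2 values above the smallest followed, in linear units, whole steps curved by a polynomial of degree 2. This held for 375 values in control and 461 on the other array, all within 0.05 units. The fitted offset of the steps from whole numbers was 0.83 units in control and 0 on the other array. Inverting the curve gave values taken as those before scaling, an inference that no source used here could check.

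Trailing probe numbers were removed from names and probes of the same name were averaged. Samples were grouped by the treatment label. No test was run, as each group has 1 array. The call size was 2-fold. The members and lists were chosen with earlier results of these data known. Star names were paired with the guide of the same name, with a locus number dropped where needed. Named outside the family were names past 2-fold with the floor, the 5 nearest in difference and 3 arm pairs at each end. miR-191, miR-122a and up to 2 list members at each end were also named. Further list markers and miR-30c-1* were named after their values were seen. Listed muscle, erythroid and endothelial miRNAs were undetected, and of the neural list miR-128a alone was detected (-0.08). The liver list had a median of 0.02 over 6 detected names. Alternatives covered scaling between arrays, inversion of the curve, the floor and the call size. Python 3.11.15 was used with matplotlib 3.10.9, statsmodels 0.14.6, scipy 1.17.1, pandas 2.3.3 and numpy 2.4.6.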

Additional observations from a re-analysis of the deposited data

How the results depend on the processing

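A total of 8 alternatives changed scaling or floor, 1 at a time. In each of them 3 members stayed at least 2-fold lower. Over all detected names, 186 to 243 by alternative, 5 to 7 were at least 2-fold lower. miR-181a ran from -1.63 to -1.47, miR-181b from -1.67 to -1.41, miR-181d from -0.53 to -0.32, miR-181a-2* from -0.41 to -0.27 and miR-181c* from -0.23 to -0.08. For miR-181a* the difference was -2.94 with no floor, -1.46 with the floor at the 75th percentile and -1.83 with the floor added. In these settings its difference minus that of miR-181a-2* was -2.62, -1.14 and -1.55. Against miR-181a the gap was -1.44, 0.037 and -0.35, so the arm gap at the chromosome 1 hairpin has no settled direction. With no floor miR-181c was at 1.35 and its arm gap at -1.52, while the stricter floor left miR-181c out. The count of names at least 2-fold lower was 10 at 1.5-fold and 1 at 3-fold. The count higher was 8 at 1.5-fold, 0 at 3-fold, 8 with no floor, and 0 both before scaling and after removal of the level trend. The median of all detected names stayed between -0.07 and 0.01. No paired analysis was possible because only 1 array stands for each condition, and no replicate could be left out. Members near the floor (miR-181c, miR-181d, miR-181a* on the array labelled TCDD) are limited by it.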
